A study of Homo sapiens with 12 samples.

Results

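Glycolysis breaks glucose down to pyruvate and lactate in the cytosol, and most of its enzymes, with the glucose and lactate carriers, are also switched on by the hypoxia-inducible factors. A hypoxia-inducible factor (HIF) is a pair of a stable beta subunit and an alpha subunit, HIF1A or EPAS1, whose protein is destroyed in the presence of oxygen once the prolyl hydroxylases EGLN1 and EGLN3 have marked it. When it is spared, the pair binds DNA at the letters ACGTG or GCGTG and raises genes of glucose use, mitophagy, pH control, blood vessel growth and the hydroxylases themselves. The gene set described here held 45 such genes, namely 16 glycolytic enzymes, 7 transporters and regulators of glycolytic flux, the 2 HIF alpha subunits and 20 HIF targets with no part in glucose metabolism. For each gene the probe set was taken that named that gene alone in the array annotation and had the highest mean over the 12 arrays, out of 19775 genes named in this way. A probe set was found for 43 of the 45 genes. The lactate carrier SLC16A3 and the carbonic anhydrase CA9 had none that named them alone, and no value is given for them. Of the 43, 40 passed the filters and were tested among 7426 genes (12894 probe sets). GAPDH and SLC2A3 varied too little across the arrays and ANGPTL4 was too dim, and these 3 are described without a test. The choice of probe set used no difference between groups, but the genes themselves were chosen with earlier results of these data known.

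The arrays came from SaOS-2, an established osteosarcoma cell line that can be driven towards bone-forming cells, and from Sa/CD99, SaOS-2 cells stably transfected by calcium phosphate with the surface glycoprotein CD99 and selected in neomycin. Sa/CD99 was represented at each time by 1 array of clone wt22 and 1 array of clone wt36, so each of its groups holds 2 clones and no repeat of either. SaOS-2 was represented by 2 arrays at each time, and whether these were separate cultures is not stated, so their scatter may be only technical. The p-values in both lines rest on 1 spread per probe set, estimated over all 12 arrays. The 2 clones differed more than the 2 SaOS-2 arrays of a day. That spread therefore reflects largely the gap between the clones, also for changes within SaOS-2. RNA was taken at day 0, in the routine medium, and after 7 and 14 days in osteogenic medium with less serum, beta-glycerophosphate and ascorbic acid, so the time in culture and the change of medium cannot be told apart. Values are log2 signals after robust multi-array averaging, a difference of 1 being a 2-fold change, and they compare arrays for 1 gene, never 1 gene with another. In bulk RNA, fewer cells of a type and less RNA per cell cannot be told apart.

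On the arrays labelled Sa/CD99 a CD99 probe set was lower than on the SaOS-2 arrays, 6.67 to 8.88 against 11.26 to 11.88, which goes against the label, while the other CD99 probe set lay at 12.32 to 12.74 and 12.29 to 12.66. The study's methods state that real-time PCR verified CD99 expression in every profiled sample, before and during differentiation. Those PCR data were not analysed here. Because a CD99 probe set goes against the label, the transfected samples are called the arrays labelled Sa/CD99 wherever the lines are set against each other. The 2 clones differed more than the 2 parental arrays of a day, with an SD of the difference over all tested probe sets of 0.392 to 0.417 against 0.12 to 0.14. Of 9 bone markers 8 were above a signal of 100 (6.64 on the log2 scale) on some array, as was 1 of 3 epithelial markers (EPCAM) and none of the 7 blood, endothelial and adipocyte markers. The gap between 3' and 5' control probe sets was 0.049 to 0.203 against 0.029 to 0.114 for GAPDH and 0.125 to 0.458 against 0.107 to 0.237 for ACTB, highest on 1 day 7 array labelled Sa/CD99. The part of this gap in the results at day 7 was not tested beyond leaving out each array in turn.

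Most of the set was lower after the change of medium, in both lines and at both times. Below their day 0 mean lay 33 of 40 members in Sa/CD99 at each time, and 34 and 33 in SaOS-2 at days 7 and 14. A change was called when limma gave a Benjamini-Hochberg adjusted p of at most 0.05 over all 12894 probe sets and the change was at least 1.5-fold. At day 7 against day 0, 21 of 40 members fell and 1 rose in Sa/CD99, where 7.78% of all tested probe sets were called lower and 10.4% higher, and 22 fell and 1 rose in SaOS-2, where 8.63% were lower and 12.8% higher. At day 14 against day 0, 21 fell and 2 rose in Sa/CD99 (13% of all probe sets lower, 6.39% higher), and 21 fell and 1 rose in SaOS-2 (8.86% lower, 6.03% higher). The median log2 difference of the 40 members was -0.60 and -0.65 at days 7 and 14 in Sa/CD99, beside -0.015 and -0.088 over all probe sets tested. In SaOS-2 it was -0.72 and -0.67, beside 0.0045 and -0.11. With no filter, the 43 members had medians of -0.59 and -0.63 in Sa/CD99 and -0.69 and -0.54 in SaOS-2, and the 54613 probe sets had -0.021 and 0.037 in Sa/CD99 and -0.020 and 0.030 in SaOS-2. The comparisons at days 7 and 14 share their day 0 arrays. ENO2, ANKRD37 and EGLN3 passed the signal filter only through their day 0 arrays, so that they had to differ, and their calls are given as a description alone. Without these 3, 18 of 37 members fell at each time in Sa/CD99, and 19 and 18 in SaOS-2 at days 7 and 14. In all, 17 members (14 without these 3) fell in all 4 comparisons with day 0, 8 fell in 1 to 3 of them, EPAS1 rose in all 4, DDIT4 rose in 1, and 13 were called in none. The share of all probe sets that fell in all 4 was not computed. Shares of single comparisons cannot stand in for it, since the comparisons share arrays and an estimate of the spread. Wherever the 17 are named below, ENO2, ANKRD37 and EGLN3 are among them. ENO2 and EGLN3 are also among those said to lose no call with an array left out. Of the 17, 11 lost no call with any 1 array left out, and 2 lost none in a fit of only the groups compared. The counts in Sa/CD99 lean on a spread estimated over all 12 arrays, since a fit of only the 4 arrays compared called 10 members at day 7 and 3 at day 14, against 25 and 23 in SaOS-2. With each array centred on its median, 5 members were higher and 16 lower at day 14 in Sa/CD99, instead of 2 and 21. The shares of all probe sets called in these other settings were not computed, and the shares above belong to the main fit.

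**Figure D1:**
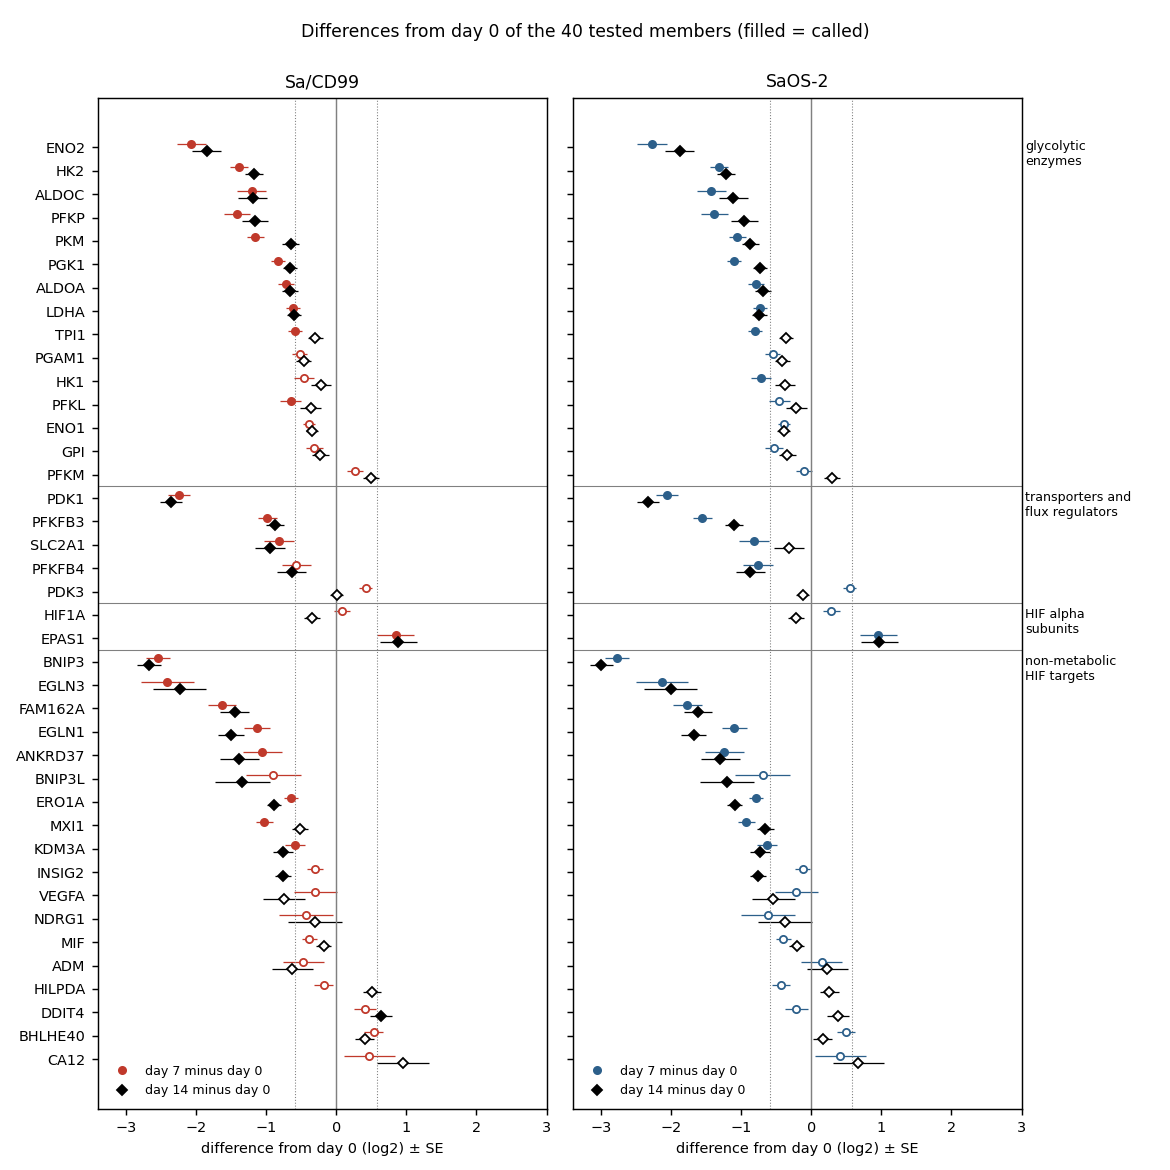
Log2 differences of days 7 and 14 from day 0 (x axis, points with bars of 1 SE) for the 40 tested members (y axis, grouped by role), with Sa/CD99 in the left panel and SaOS-2 in the right; filled points passed the call and dotted lines mark 1.5-fold. Most points of all groups except the alpha subunits lie left of 0 in both panels, and BNIP3 lies farthest left.

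Of the 15 glycolytic enzymes tested, 10 fell at day 7 and 8 at day 14 in each line, and none rose. Each of these counts holds ENO2, which passed the signal filter only through its day 0 arrays. The median log2 difference of the 15 enzymes was -0.65 and -0.60 in Sa/CD99 and -0.79 and -0.69 in SaOS-2 at days 7 and 14. In the values that follow, each pair of arrays is wt22 and then wt36 in Sa/CD99, and replicate 1 and then replicate 2 in SaOS-2. The SE is that of the log2 difference in the limma fit. Where several forms of an enzyme catalyse a step, they are given together.

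Hexokinase traps glucose in the cell as glucose 6-phosphate, and HK2 is its inducible form. HK2 had log2 signals of 10.08 and 10.45 at day 0, 8.94 and 8.81 at day 7 and 9.13 and 9.04 at day 14 on the arrays labelled Sa/CD99, and 10.13 and 10.33 at day 0, 8.90 and 8.92 at day 7 and 8.99 and 9.04 at day 14 on the SaOS-2 arrays. All 8 arrays of days 7 and 14 were below all 4 of day 0. HK2 fell 2.62-fold at day 7 and 2.26-fold at day 14 (log2 differences -1.39 and -1.18, adjusted p = 0.000147 and 0.000411) in Sa/CD99, and 2.49-fold at day 7 and 2.32-fold at day 14 (log2 differences -1.32 and -1.22, adjusted p = 0.000239 and 0.000396) in SaOS-2, with an SE of 0.13. A much dimmer HK2 probe set, with a mean signal of 6.66, differed the other way, by 0.39 and 0.46 in Sa/CD99 and 0.07 and 0.59 in SaOS-2. HK1, the form found in most tissues, gave 10.95 and 11.37 at day 0, 10.56 and 10.84 at day 7 and 10.92 and 10.97 at day 14 on the arrays labelled Sa/CD99, and 11.38 and 11.28 at day 0, 10.63 and 10.59 at day 7 and 10.97 and 10.93 at day 14 on the SaOS-2 arrays. It fell in SaOS-2 at day 7 alone (log2 -0.72 ± 0.15, adjusted p = 0.00514). Its other log2 differences were -0.38 in SaOS-2 at day 14 and -0.46 and -0.22 in Sa/CD99 at days 7 and 14. In Sa/CD99 at day 7 it passed the call without the day 0 array of wt22 (-0.68) or the day 7 array of wt36 (-0.60). Phosphoglucose isomerase, GPI, which turns glucose 6-phosphate into fructose 6-phosphate, was not called, with log2 differences of -0.31 and -0.23 in Sa/CD99, and -0.53 and -0.34 in SaOS-2.

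Phosphofructokinase commits sugar to glycolysis and exists as a platelet, a liver and a muscle form. PFKP, the platelet form, had 11.25 and 11.49 at day 0, 9.67 and 10.24 at day 7 and 10.03 and 10.39 at day 14 on the arrays labelled Sa/CD99, and 11.56 and 11.41 at day 0, 10.08 and 10.11 at day 7 and 10.57 and 10.49 at day 14 on the SaOS-2 arrays. Again no later array reached a day 0 array. PFKP fell 2.67-fold at day 7 and 2.24-fold at day 14 (log2 differences -1.42 and -1.16, adjusted p = 0.000811 and 0.00255) in Sa/CD99, and 2.61-fold at day 7 and 1.94-fold at day 14 (log2 differences -1.39 and -0.96, adjusted p = 0.000914 and 0.00672) in SaOS-2, with an SE of 0.19. Without replicate 1 of day 0 or replicate 2 of day 14, the SaOS-2 change at day 14 was -0.88 and -0.92 and missed the threshold (adjusted p = 0.0529 and 0.0537). PFKL, the liver form, gave 9.95 and 10.17 at day 0, 9.61 and 9.21 at day 7 and 9.77 and 9.62 at day 14 on the arrays labelled Sa/CD99, and 10.14 and 9.99 at day 0, 9.60 and 9.62 at day 7 and 9.94 and 9.76 at day 14 on the SaOS-2 arrays. It fell in Sa/CD99 at day 7 (log2 -0.65 ± 0.15, adjusted p = 0.00971), a call that was lost without the day 0 array of wt36 (-0.54) or the day 7 array of wt36 (-0.45). PFKM, the muscle form, was the one tested enzyme that lay above day 0 in 3 of the 4 comparisons, with log2 differences of 0.27 and 0.50 in Sa/CD99, and -0.11 and 0.29 in SaOS-2. None of these reached 1.5-fold. At day 14 in Sa/CD99 PFKM passed the call without the day 0 array of wt36 (0.62, adjusted p = 0.00741) and with each array centred on its median (0.59, adjusted p = 0.00733).

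Aldolase splits fructose 1,6-bisphosphate. ALDOC, best known from brain, had 9.47 and 10.26 at day 0, 8.66 and 8.65 at day 7 and 8.58 and 8.75 at day 14 on the arrays labelled Sa/CD99, and 9.83 and 9.85 at day 0, 8.43 and 8.40 at day 7 and 8.76 and 8.70 at day 14 on the SaOS-2 arrays. Day 0 stood above both later days on every array. The fall of ALDOC was 2.31-fold at day 7 and 2.29-fold at day 14 (log2 differences -1.21 and -1.20, adjusted p = 0.00264 and 0.00322) in Sa/CD99, and 2.69-fold at day 7 and 2.16-fold at day 14 (log2 differences -1.43 and -1.11, adjusted p = 0.00118 and 0.00516) in SaOS-2, with an SE of 0.21. ALDOA, the muscle form that most tissues use, had 13.35 and 13.65 at day 0, 12.78 and 12.78 at day 7 and 12.82 and 12.87 at day 14 on the arrays labelled Sa/CD99, and 13.54 and 13.47 at day 0, 12.70 and 12.73 at day 7 and 12.88 and 12.75 at day 14 on the SaOS-2 arrays. The 2 days did not overlap with day 0 here either, at a smaller distance. ALDOA fell 1.65-fold at day 7 and 1.58-fold at day 14 (log2 differences -0.72 and -0.66, adjusted p = 0.0016 and 0.00295) in Sa/CD99, and 1.73-fold at day 7 and 1.62-fold at day 14 (log2 differences -0.79 and -0.69, adjusted p = 0.00104 and 0.00287) in SaOS-2, with an SE of 0.11. Without the day 0 array of wt36 its changes in Sa/CD99 were -0.57 and -0.51 and below 1.5-fold. TPI1, which interconverts the 2 products of aldolase, gave 12.44 and 12.63 at day 0, 11.87 and 12.02 at day 7 and 12.21 and 12.26 at day 14 on the arrays labelled Sa/CD99, and 12.56 and 12.61 at day 0, 11.81 and 11.75 at day 7 and 12.25 and 12.20 at day 14 on the SaOS-2 arrays. It fell at day 7, by 1.5-fold in Sa/CD99 (adjusted p = 0.00265) and 1.75-fold in SaOS-2 (adjusted p = 0.000606), and its day 14 differences of -0.30 and -0.36 were under 1.5-fold. The Sa/CD99 call was lost without the day 0 array of wt36 (-0.49) or the day 7 array of wt22 (-0.51).

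In the second stretch of the pathway, PGK1 makes the first ATP. PGK1 had 13.27 and 13.38 at day 0, 12.38 and 12.61 at day 7 and 12.67 and 12.67 at day 14 on the arrays labelled Sa/CD99, and 13.34 and 13.35 at day 0, 12.29 and 12.21 at day 7 and 12.62 and 12.61 at day 14 on the SaOS-2 arrays. Every later array was below every day 0 array. It fell 1.78-fold at day 7 and 1.57-fold at day 14 (log2 differences -0.83 and -0.66, adjusted p = 0.000498 and 0.00203) in Sa/CD99, and 2.14-fold at day 7 and 1.66-fold at day 14 (log2 differences -1.10 and -0.73, adjusted p = 0.000185 and 0.00142) in SaOS-2, with an SE of 0.10. PGAM1, which moves the phosphate of 3-phosphoglycerate, had log2 differences of -0.52 and -0.46 in Sa/CD99, and -0.55 and -0.41 in SaOS-2. All 4 had an adjusted p of at most 0.0192, and none reached 1.5-fold. PGAM1 passed the call in Sa/CD99 without the day 0 array of wt22 (-0.67 and -0.61), and in SaOS-2 at day 7 with each array centred on its median (-0.59, adjusted p = 0.00446). GAPDH, which reduces NAD+ at this stage and is a common reference gene, lay at 14.13 to 14.18 on the later arrays, against 14.27 to 14.39 at day 0, close to the top of the scale. Its untested log2 differences were -0.18 and -0.17 in Sa/CD99 and -0.22 and -0.20 in SaOS-2.

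Enolase makes phosphoenolpyruvate. ENO2, the neuronal form, had 8.25 and 9.05 at day 0, 6.52 and 6.64 at day 7 and 6.84 and 6.75 at day 14 on the arrays labelled Sa/CD99, and 8.52 and 8.60 at day 0, 6.32 and 6.25 at day 7 and 6.76 and 6.59 at day 14 on the SaOS-2 arrays. Later values lay about the 6.64 floor, with 3 of 8 arrays above it, so that its folds rest on signals at or near the floor, and all 4 day 0 arrays were at 8.25 or above. Since ENO2 passed the signal filter only through day 0, its differences are a description alone. ENO2 was 4.2-fold lower at day 7 and 3.61-fold lower at day 14 (log2 differences -2.07 and -1.85) in Sa/CD99. In SaOS-2 it was 4.83-fold and 3.68-fold lower (log2 differences -2.27 and -1.88), with an SE of 0.21. ENO1, the general form, had 13.84 and 13.99 at day 0, 13.47 and 13.59 at day 7 and 13.57 and 13.57 at day 14 on the arrays labelled Sa/CD99, and 13.92 and 13.95 at day 0, 13.56 and 13.53 at day 7 and 13.53 and 13.55 at day 14 on the SaOS-2 arrays. Its log2 differences were -0.39 and -0.35 in Sa/CD99, and -0.39 and -0.40 in SaOS-2, with an adjusted p of at most 0.017 and none at 1.5-fold. Whether 2 forms of an enzyme differed in their change was not tested.

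Pyruvate kinase closes the pathway and lactate dehydrogenase turns pyruvate into lactate. PKM had 12.07 and 12.18 at day 0, 11.16 and 10.78 at day 7 and 11.48 and 11.46 at day 14 on the arrays labelled Sa/CD99, and 12.23 and 12.20 at day 0, 11.17 and 11.14 at day 7 and 11.33 and 11.35 at day 14 on the SaOS-2 arrays. Day 7 held the lowest value of each line. PKM fell 2.23-fold at day 7 and 1.57-fold at day 14 (log2 differences -1.16 and -0.65, adjusted p = 0.00027 and 0.00458) in Sa/CD99, and 2.08-fold at day 7 and 1.83-fold at day 14 (log2 differences -1.06 and -0.87, adjusted p = 0.000432 and 0.00156) in SaOS-2, with an SE of 0.12. LDHA, the A subunit of lactate dehydrogenase, had 13.70 and 13.71 at day 0, 12.95 and 13.22 at day 7 and 13.04 and 13.17 at day 14 on the arrays labelled Sa/CD99, and 13.73 and 13.74 at day 0, 13.00 and 13.01 at day 7 and 12.99 and 12.99 at day 14 on the SaOS-2 arrays. The 4 day 0 arrays lay between 13.70 and 13.74, above all others. LDHA fell 1.54-fold at day 7 and 1.52-fold at day 14 (log2 differences -0.62 and -0.60, adjusted p = 0.00249 and 0.0033) in Sa/CD99, and 1.66-fold at day 7 and 1.67-fold at day 14 (log2 differences -0.73 and -0.74, adjusted p = 0.00114 and 0.00158) in SaOS-2, with an SE of 0.10. In Sa/CD99 its change was -0.49 at day 7 without the day 7 array of wt22 and -0.54 at day 14 without the day 14 array of wt22, both under 1.5-fold.

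**Figure D2:**
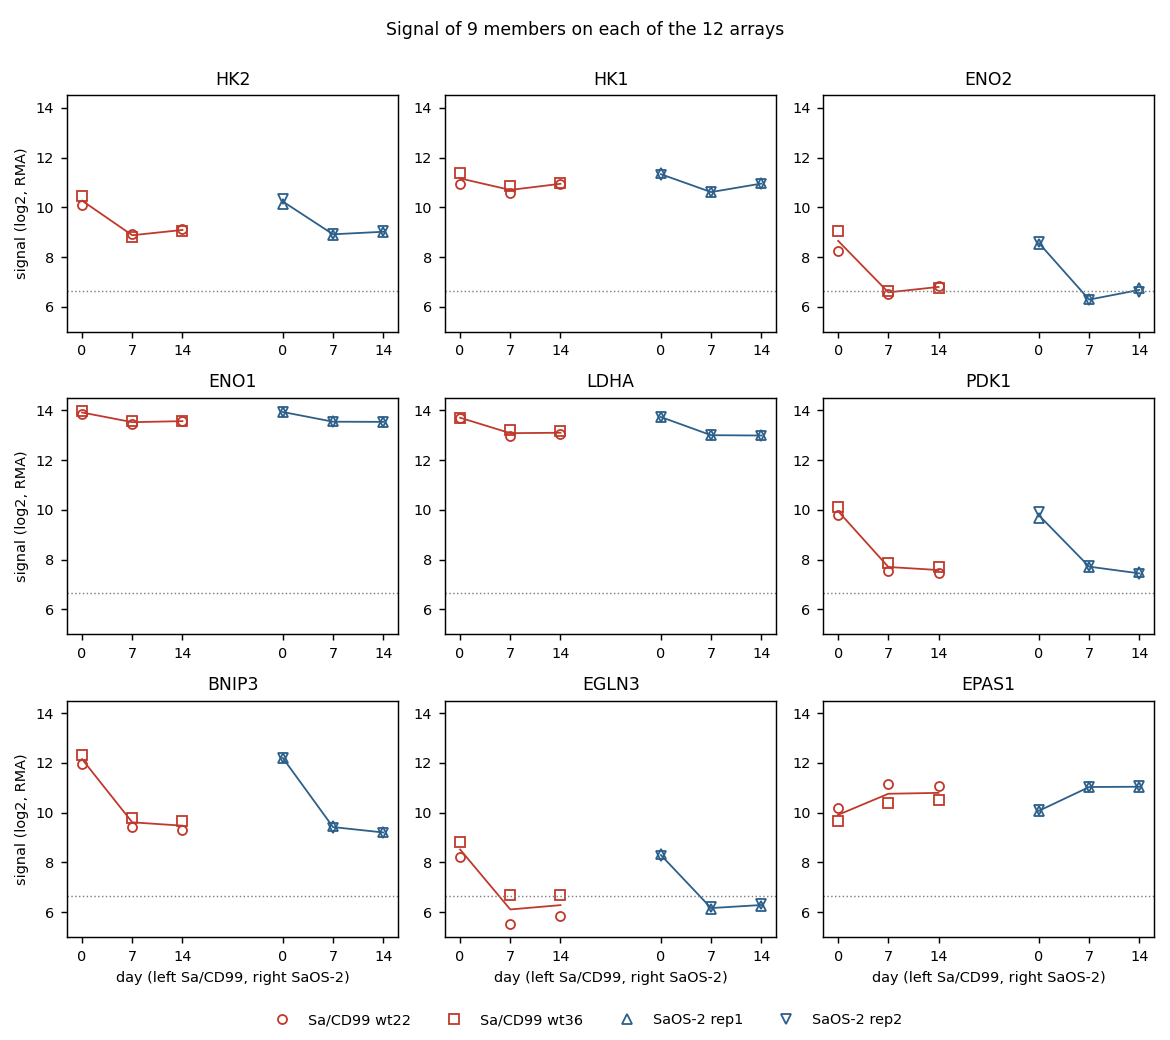
Log2 signal (y axis) of 9 members by day (x axis), with Sa/CD99 on the left of each panel and SaOS-2 on the right; each symbol is 1 array, lines join group means, and the dotted line is the signal floor of 6.64. HK2, ENO2, PDK1, BNIP3 and EGLN3 drop between day 0 and day 7, HK1 and ENO1 move less, and EPAS1 is higher on the later days.

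Between days 7 and 14 none of the 15 enzymes was called in either line, against 2.98% of all probe sets higher and 15.6% lower in Sa/CD99 and 4.75% higher and 18.2% lower in SaOS-2. Limma gave an unadjusted p under 0.05 for 2 enzymes in Sa/CD99 and 5 in SaOS-2, beside 6576 and 7605 of all 12894 probe sets. All 15 differences were above 0 in Sa/CD99 (median 0.21) and 13 of 15 in SaOS-2 (median 0.24), where the medians over all probe sets tested were -0.0047 and -0.019. The tested enzyme with the lowest adjusted p was PKM in Sa/CD99 (0.50 ± 0.12, adjusted p = 0.0123) and TPI1 in SaOS-2 (0.45 ± 0.10, adjusted p = 0.00709). PKM passed the call in Sa/CD99 without the day 7 array of wt22 (0.69) and with each array centred on its median (0.59), and ENO2 in SaOS-2 with quantile normalization (0.68). Of the 18 targets outside metabolism, 8 were above 0 in Sa/CD99 (median -0.13) and 9 in SaOS-2 (median 0.015).

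Among the transporters and regulators of flux, 5 were tested, of which 3 and 4 fell at days 7 and 14 in Sa/CD99 and 4 and 3 in SaOS-2. The kinase PDK1 phosphorylates pyruvate dehydrogenase and so keeps pyruvate out of the citric acid cycle. PDK1 had 9.78 and 10.12 at day 0, 7.54 and 7.87 at day 7 and 7.47 and 7.70 at day 14 on the arrays labelled Sa/CD99, and 9.66 and 9.91 at day 0, 7.70 and 7.74 at day 7 and 7.48 and 7.41 at day 14 on the SaOS-2 arrays. No later array was above 7.87 and no day 0 array below 9.66. PDK1 fell 4.73-fold at day 7 and 5.15-fold at day 14 (log2 differences -2.24 and -2.36, adjusted p = 3.76e-05 and 3.77e-05) in Sa/CD99, and 4.18-fold at day 7 and 5.04-fold at day 14 (log2 differences -2.06 and -2.33, adjusted p = 9.62e-05 and 5.08e-05) in SaOS-2, with an SE of 0.16. PDK3, a related kinase, showed another course, with 7.83 and 7.86 at day 0, 8.35 and 8.17 at day 7 and 7.82 and 7.88 at day 14 on the arrays labelled Sa/CD99, and 8.04 and 8.04 at day 0, 8.56 and 8.61 at day 7 and 7.95 and 7.88 at day 14 on the SaOS-2 arrays. Its day 7 arrays were the highest of each line, at log2 differences of 0.42 in Sa/CD99 and 0.55 in SaOS-2 that stayed under 1.5-fold. Some other PDK3 probe sets differed the other way at day 7, one with a mean signal of 8.05 by -0.23 in Sa/CD99 and -0.31 in SaOS-2, and one with a mean of 6.64 by -0.41 and -0.54. So did a dim one with a mean of 4.94, by -0.39 and -0.30. Another, with a mean of 6.85, differed the same way as the one used, by 0.64 in each line. Between days 7 and 14 PDK3 fell in SaOS-2 (-0.67 ± 0.09, adjusted p = 0.00108) and differed by -0.41 in Sa/CD99.

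PFKFB3 and PFKFB4 set the level of fructose 2,6-bisphosphate, the activator of phosphofructokinase. PFKFB3 had 8.56 and 8.26 at day 0, 7.35 and 7.50 at day 7 and 7.54 and 7.52 at day 14 on the arrays labelled Sa/CD99, and 8.67 and 8.81 at day 0, 7.28 and 7.09 at day 7 and 7.56 and 7.71 at day 14 on the SaOS-2 arrays. It was highest on the day 0 SaOS-2 arrays and lowest at day 7 in both lines. PFKFB3 fell 1.98-fold at day 7 and 1.84-fold at day 14 (log2 differences -0.98 and -0.88, adjusted p = 0.000759 and 0.00168) in Sa/CD99, and 2.94-fold at day 7 and 2.15-fold at day 14 (log2 differences -1.55 and -1.10, adjusted p = 0.00012 and 0.000648) in SaOS-2, with an SE of 0.13. PFKFB4 gave 8.67 and 9.41 at day 0, 8.36 and 8.57 at day 7 and 8.24 and 8.56 at day 14 on the arrays labelled Sa/CD99, and 9.13 and 9.11 at day 0, 8.35 and 8.38 at day 7 and 8.31 and 8.19 at day 14 on the SaOS-2 arrays. It fell in SaOS-2 (log2 -0.76 and -0.87 at days 7 and 14, adjusted p = 0.0203 and 0.0156) and at day 14 in Sa/CD99 (-0.64, adjusted p = 0.0409). In SaOS-2 leaving out any 1 of the 4 arrays compared took its adjusted p over the threshold, to 0.0814 to 0.0921 at day 7 and 0.0671 to 0.0944 at day 14. In Sa/CD99 the day 14 change was -0.27 without the day 0 array of wt36, -0.47 without the day 14 array of wt22 and -0.64 without any 1 SaOS-2 array (adjusted p = 0.062 to 0.0637), and the day 7 change passed the call (-0.94) without the day 0 array of wt22.

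The glucose carrier SLC2A1 had 7.80 and 8.49 at day 0, 7.11 and 7.56 at day 7 and 7.20 and 7.20 at day 14 on the arrays labelled Sa/CD99, and 7.84 and 7.63 at day 0, 6.93 and 6.88 at day 7 and 7.45 and 7.39 at day 14 on the SaOS-2 arrays. The day 0 array of wt36 was the highest. SLC2A1 fell in Sa/CD99 1.76-fold at day 7 and 1.93-fold at day 14 (log2 differences -0.81 and -0.95, adjusted p = 0.018 and 0.00978) and in SaOS-2 at day 7 (log2 -0.82 ± 0.21, adjusted p = 0.0149), and its day 14 difference in SaOS-2 was -0.31 ± 0.21 (adjusted p = 0.277). The Sa/CD99 call at day 7 was lost without the day 0 array of wt36 (-0.47) or the day 7 array of wt22 (-0.59, adjusted p = 0.109), and that of SaOS-2 without replicate 1 of day 0 (-0.72), replicate 1 of day 7 (-0.85) or replicate 2 of day 7 (-0.80). The second glucose carrier, SLC2A3, lay between 6.33 and 6.84 on all arrays, with untested differences of 0.061 to 0.16 from day 0.

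Neither HIF alpha subunit was called lower. EPAS1, the HIF-2 alpha subunit, had 10.18 and 9.64 at day 0, 11.13 and 10.38 at day 7 and 11.07 and 10.51 at day 14 on the arrays labelled Sa/CD99, and 10.06 and 10.09 at day 0, 11.02 and 11.04 at day 7 and 11.03 and 11.05 at day 14 on the SaOS-2 arrays. All 8 later arrays were above all 4 day 0 arrays, and wt22 was above wt36 on each day. EPAS1 rose 1.8-fold at day 7 and 1.84-fold at day 14 (log2 differences 0.85 and 0.88, adjusted p = 0.0338 and 0.028) in Sa/CD99, and 1.94-fold at day 7 and 1.96-fold at day 14 (log2 differences 0.96 and 0.97, adjusted p = 0.0189 and 0.0234) in SaOS-2, with an SE of 0.26. These calls were close to the threshold. Leaving out 1 SaOS-2 array of the days compared gave changes of 0.94 to 0.98 in SaOS-2 with an adjusted p of 0.0763 to 0.108. In Sa/CD99 the changes without the day 0 array of wt36 were 0.58 and 0.62, without the day 7 array of wt22 0.47 and without the day 14 array of wt22 0.60, with an adjusted p of 0.133 to 0.206. The day 7 change in Sa/CD99 also missed the threshold without any 1 SaOS-2 array (0.85, adjusted p = 0.0537 to 0.0543), and both Sa/CD99 changes did with no filter (adjusted p = 0.0525 and 0.0535). HIF1A had 12.28 and 12.36 at day 0, 12.26 and 12.54 at day 7 and 11.88 and 12.06 at day 14 on the arrays labelled Sa/CD99, and 12.36 and 12.45 at day 0, 12.68 and 12.70 at day 7 and 12.13 and 12.24 at day 14 on the SaOS-2 arrays. Its log2 differences from day 0 were 0.08 and -0.35 in Sa/CD99, and 0.29 and -0.22 in SaOS-2, and between days 7 and 14 it differed by -0.43 (adjusted p = 0.0186) in Sa/CD99 and -0.50 (adjusted p = 0.00802) in SaOS-2, none of them reaching 1.5-fold. These are RNA levels, while HIF alpha subunits are controlled mainly as proteins, which were not measured here.

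Of the 18 tested HIF targets outside glucose metabolism, 8 fell at day 7 and 9 at day 14 in Sa/CD99, and 8 and 10 in SaOS-2. Each of these counts holds EGLN3 and ANKRD37, which passed the signal filter only through their day 0 arrays. The median log2 difference of the 18 targets was -0.53 and -0.76 in Sa/CD99 and -0.63 and -0.69 in SaOS-2. BNIP3, a mitochondrial outer membrane protein that marks mitochondria for removal, had 11.97 and 12.33 at day 0, 9.42 and 9.80 at day 7 and 9.29 and 9.66 at day 14 on the arrays labelled Sa/CD99, and 12.21 and 12.18 at day 0, 9.46 and 9.38 at day 7 and 9.22 and 9.19 at day 14 on the SaOS-2 arrays. No later array was above 9.80 and no day 0 array below 11.97. BNIP3 fell 5.82-fold at day 7 and 6.39-fold at day 14 (log2 differences -2.54 and -2.68, adjusted p = 3.02e-05 and 3.04e-05) in Sa/CD99, and 6.86-fold at day 7 and 7.97-fold at day 14 (log2 differences -2.78 and -2.99, adjusted p = 3.53e-05 and 1.51e-05) in SaOS-2, with an SE of 0.17, the steepest fall of the set. FAM162A, a mitochondrial protein induced by HIF, had 12.65 and 13.20 at day 0, 11.14 and 11.45 at day 7 and 11.23 and 11.72 at day 14 on the arrays labelled Sa/CD99, and 12.98 and 12.90 at day 0, 11.16 and 11.18 at day 7 and 11.33 and 11.32 at day 14 on the SaOS-2 arrays. It too had no later array at a day 0 level. FAM162A fell 3.1-fold at day 7 and 2.74-fold at day 14 (log2 differences -1.63 and -1.45, adjusted p = 0.000577 and 0.00131) in Sa/CD99, and 3.4-fold at day 7 and 3.06-fold at day 14 (log2 differences -1.77 and -1.61, adjusted p = 0.000424 and 0.000924) in SaOS-2, with an SE of 0.20.

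The hydroxylases that mark HIF for destruction are themselves HIF targets. EGLN1 fell, while EGLN3, which passed the signal filter only through its day 0 arrays, is given as a description alone. EGLN3 had 8.19 and 8.84 at day 0, 5.53 and 6.68 at day 7 and 5.85 and 6.70 at day 14 on the arrays labelled Sa/CD99, and 8.32 and 8.26 at day 0, 6.13 and 6.19 at day 7 and 6.26 and 6.31 at day 14 on the SaOS-2 arrays. Its later values lay about the 6.64 floor, with 2 of 8 arrays above it, both of wt36, and its folds rest on them. EGLN3 was 5.31-fold lower at day 7 and 4.71-fold lower at day 14 (log2 differences -2.41 and -2.24) in Sa/CD99. In SaOS-2 it was 4.38-fold and 4.03-fold lower (log2 differences -2.13 and -2.01), with an SE of 0.37. EGLN1, the main hydroxylase in most cells, had 9.06 and 9.48 at day 0, 7.89 and 8.39 at day 7 and 7.66 and 7.88 at day 14 on the arrays labelled Sa/CD99, and 9.35 and 9.49 at day 0, 8.30 and 8.36 at day 7 and 7.77 and 7.72 at day 14 on the SaOS-2 arrays. In both lines the day 14 arrays were the lowest. EGLN1 fell 2.19-fold at day 7 and 2.83-fold at day 14 (log2 differences -1.13 and -1.50, adjusted p = 0.00208 and 0.000706) in Sa/CD99, and 2.14-fold at day 7 and 3.2-fold at day 14 (log2 differences -1.10 and -1.68, adjusted p = 0.00225 and 0.000453) in SaOS-2, with an SE of 0.18. Between days 7 and 14 it differed by -0.37 in Sa/CD99, which passed the call (-0.62, adjusted p = 0.0335) without the day 7 array of wt22.

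Promoter windows of the members that led these falls and of EPAS1 are shown because a HIF acts through the letters ACGTG or GCGTG. Windows run over 300 bases, 250 before to 50 after the gene's start in RefSeq on GRCh38.p14, and are written 5′ to 3′ on the gene's strand. Capitals mark either motif on either strand. The longer motif CACGTG, counted apart, always holds ACGTG and overlaps it. The 4 falling genes are those with the largest mean fall whose window holds a match. BNIP3 (chr10:131981874-131982173, minus strand), ENO2 (chr12:6914330-6914629, plus strand), FAM162A (chr3:122383932-122384231, plus strand), EGLN1 (chr1:231422238-231422537, minus strand) and EPAS1 (chr2:46297157-46297456, plus strand) read as follows.
BNIP3: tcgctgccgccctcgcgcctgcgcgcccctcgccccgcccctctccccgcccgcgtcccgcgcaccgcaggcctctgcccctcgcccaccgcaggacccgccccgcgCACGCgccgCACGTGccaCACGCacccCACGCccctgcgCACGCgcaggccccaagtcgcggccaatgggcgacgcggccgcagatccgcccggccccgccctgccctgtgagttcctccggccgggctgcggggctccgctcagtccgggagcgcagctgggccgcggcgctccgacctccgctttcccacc
ENO2: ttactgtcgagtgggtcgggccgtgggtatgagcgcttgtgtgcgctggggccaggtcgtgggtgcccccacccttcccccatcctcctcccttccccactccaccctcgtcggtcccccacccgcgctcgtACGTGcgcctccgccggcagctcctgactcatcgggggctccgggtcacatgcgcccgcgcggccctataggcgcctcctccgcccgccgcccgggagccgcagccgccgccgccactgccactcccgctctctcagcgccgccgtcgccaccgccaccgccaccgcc
FAM162A: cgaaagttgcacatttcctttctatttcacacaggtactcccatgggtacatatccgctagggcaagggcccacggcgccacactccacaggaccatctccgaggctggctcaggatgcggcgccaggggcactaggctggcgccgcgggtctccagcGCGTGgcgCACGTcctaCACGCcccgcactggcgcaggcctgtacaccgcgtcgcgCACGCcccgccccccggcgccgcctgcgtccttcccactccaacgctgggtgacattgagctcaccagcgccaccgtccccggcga
EGLN1: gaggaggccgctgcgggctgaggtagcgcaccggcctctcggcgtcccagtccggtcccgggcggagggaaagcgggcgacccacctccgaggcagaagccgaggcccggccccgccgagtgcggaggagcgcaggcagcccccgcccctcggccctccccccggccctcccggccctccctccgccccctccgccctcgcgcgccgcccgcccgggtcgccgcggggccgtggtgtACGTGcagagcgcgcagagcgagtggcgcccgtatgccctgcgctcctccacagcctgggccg
EPAS1: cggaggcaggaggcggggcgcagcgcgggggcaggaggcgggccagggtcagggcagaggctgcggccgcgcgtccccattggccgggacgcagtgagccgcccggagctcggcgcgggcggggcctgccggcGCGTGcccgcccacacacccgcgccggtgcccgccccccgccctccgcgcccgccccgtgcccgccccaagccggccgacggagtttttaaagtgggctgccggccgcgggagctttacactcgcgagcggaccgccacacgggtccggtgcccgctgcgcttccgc
BNIP3 held 4 matches to GCGTG and a CACGTG, the first of them 143 bases before the start and the last 104 before it. FAM162A held 1 match to ACGTG and 3 to GCGTG, between 92 and 36 bases before the start. ENO2 held 1 match to ACGTG at 118 bases before the start, EGLN1 1 at 13 bases, and EPAS1, which rose, 1 match to GCGTG at 117 bases. The windows of PDK1 and EGLN3 held none. Over the set, 40 members had a window and 31 of them (77.5%) held ACGTG or GCGTG, beside 64.8% of the 6194 windows of all genes tested and 48.4% of all 35116 windows. ACGTG alone was in 50% of the members' windows and in 28% and 21.4% of these others, GCGTG in 52.5%, 51.6% and 36.5%, and CACGTG in 15%, 10.7% and 7.26%. Of the 17 members that fell in all 4 comparisons 14 windows (82.4%) held ACGTG or GCGTG, and of the 12 with a window that fell in none, 10 (83.3%) did. The letters are a description and not a binding site, and starts other than RefSeq's are not covered.

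Further regulators and enzymes among the targets fell in all 4 comparisons. KDM3A, a histone demethylase, had 9.49 and 9.50 at day 0, 9.10 and 8.70 at day 7 and 8.86 and 8.58 at day 14 on the arrays labelled Sa/CD99, and 9.67 and 9.68 at day 0, 8.99 and 9.09 at day 7 and 8.98 and 8.91 at day 14 on the SaOS-2 arrays. All later arrays were lower than all of day 0. KDM3A fell 1.5-fold at day 7 and 1.7-fold at day 14 (log2 differences -0.59 and -0.77, adjusted p = 0.0123 and 0.00431) in Sa/CD99, and 1.55-fold at day 7 and 1.66-fold at day 14 (log2 differences -0.63 and -0.73, adjusted p = 0.00789 and 0.00628) in SaOS-2, with an SE of 0.14. In Sa/CD99 at day 7 its change was -0.58 without the day 0 array of wt36 and -0.39 without the day 7 array of wt36, and in SaOS-2 it was -0.58 at day 7 without replicate 1 of day 7 and -0.70 at day 14 without replicate 2 of day 14, with the call lost each time. ERO1A, which makes disulfide bonds in the endoplasmic reticulum, had 10.04 and 10.09 at day 0, 9.30 and 9.53 at day 7 and 9.25 and 9.10 at day 14 on the arrays labelled Sa/CD99, and 10.21 and 10.26 at day 0, 9.44 and 9.45 at day 7 and 9.13 and 9.16 at day 14 on the SaOS-2 arrays. Its day 14 arrays were the lowest of each line. ERO1A fell 1.57-fold at day 7 and 1.85-fold at day 14 (log2 differences -0.65 and -0.89, adjusted p = 0.00185 and 0.000534) in Sa/CD99, and 1.73-fold at day 7 and 2.13-fold at day 14 (log2 differences -0.79 and -1.09, adjusted p = 0.000718 and 0.000226) in SaOS-2, with an SE of 0.10, and without the day 7 array of wt22 the day 7 change in Sa/CD99 was -0.53. Further ERO1A probe sets, with mean signals of 9.44 and 8.01, differed less in SaOS-2 at day 7, by -0.27 and -0.17. They differed by -0.67 and -1.07 in SaOS-2 at day 14. In Sa/CD99 they differed by -0.48 and -0.54 at day 7 and by -0.65 and -1.14 at day 14. ANKRD37, a small ankyrin protein known as a HIF target, had 8.02 and 7.63 at day 0, 7.07 and 6.46 at day 7 and 6.87 and 6.02 at day 14 on the arrays labelled Sa/CD99, and 7.77 and 7.84 at day 0, 6.53 and 6.59 at day 7 and 6.63 and 6.39 at day 14 on the SaOS-2 arrays. It was above the 6.64 floor on all 4 day 0 arrays and on 2 later arrays, both of wt22. Since ANKRD37 passed the signal filter only through day 0, its differences are a description alone. ANKRD37 was 2.08-fold lower at day 7 and 2.61-fold lower at day 14 (log2 differences -1.06 and -1.38) in Sa/CD99. In SaOS-2 it was 2.37-fold and 2.46-fold lower (log2 differences -1.24 and -1.30), with an SE of 0.28. The day 7 call in Sa/CD99 was lost without the day 0 array of wt22 (-0.86) or the day 7 array of wt36 (-0.75). In SaOS-2 the day 7 call was lost without replicate 1 of day 7 (-1.21). The day 14 call in SaOS-2 was lost without either array of day 0 (-1.33 and -1.26) or replicate 2 of day 14 (-1.17).

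MXI1, an antagonist of MYC, and INSIG2, which holds back sterol synthesis, fell on different days. MXI1 had 9.42 and 9.46 at day 0, 8.48 and 8.35 at day 7 and 9.10 and 8.75 at day 14 on the arrays labelled Sa/CD99, and 9.45 and 9.48 at day 0, 8.57 and 8.51 at day 7 and 8.82 and 8.80 at day 14 on the SaOS-2 arrays. Its lowest arrays were those of day 7. MXI1 fell in Sa/CD99 at day 7 (-1.03 ± 0.12, adjusted p = 0.000412) and in SaOS-2 at days 7 and 14 (-0.93 and -0.65, adjusted p = 0.000684 and 0.00477). INSIG2 had 8.39 and 8.48 at day 0, 8.11 and 8.15 at day 7 and 7.52 and 7.83 at day 14 on the arrays labelled Sa/CD99, and 8.51 and 8.56 at day 0, 8.41 and 8.41 at day 7 and 7.74 and 7.81 at day 14 on the SaOS-2 arrays. Here the day 14 arrays were the lowest. INSIG2 fell at day 14 against day 0 in Sa/CD99 (-0.76 ± 0.11, adjusted p = 0.00158) and in SaOS-2 (-0.76 ± 0.11, adjusted p = 0.00195), and in SaOS-2 also against day 7 (-0.64, adjusted p = 0.00265). With 1 array left out both genes gained calls in Sa/CD99, MXI1 at day 14 without the day 14 array of wt22 (-0.69 from day 0) or of wt36 (0.68 from day 7), and from day 7 also with each array centred on its median (0.60), and INSIG2 from day 7 without the day 14 array of wt36 (-0.62).

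A few targets were higher at day 14 than on an earlier day. HILPDA, a lipid droplet protein, had 10.20 and 10.26 at day 0, 10.26 and 9.84 at day 7 and 10.79 and 10.69 at day 14 on the arrays labelled Sa/CD99, and 10.11 and 10.18 at day 0, 9.72 and 9.72 at day 7 and 10.42 and 10.40 at day 14 on the SaOS-2 arrays. The day 14 arrays were the highest of each line. It rose between days 7 and 14 in Sa/CD99 (0.69 ± 0.13, adjusted p = 0.00459) and in SaOS-2 (0.69 ± 0.13, adjusted p = 0.00356), and was 0.48 in Sa/CD99 without the day 7 array of wt36. With each array centred on its median HILPDA also passed the call at day 14 against day 0 in Sa/CD99 (0.60, adjusted p = 0.00868). DDIT4, an inhibitor of the growth kinase mTOR, had 10.64 and 10.68 at day 0, 11.12 and 11.02 at day 7 and 11.01 and 11.59 at day 14 on the arrays labelled Sa/CD99, and 11.15 and 11.11 at day 0, 10.89 and 10.94 at day 7 and 11.48 and 11.54 at day 14 on the SaOS-2 arrays. The highest array was the day 14 one of wt36. DDIT4 rose at day 14 against day 0 in Sa/CD99 (0.64 ± 0.16, adjusted p = 0.0146) and at day 14 against day 7 in SaOS-2 (0.59 ± 0.16, adjusted p = 0.0149). Without the day 14 array of wt36 the change in Sa/CD99 was 0.35 and without the day 0 array of wt22 0.62 (adjusted p = 0.0591), and each SaOS-2 array of days 7 and 14 left out gave 0.57 to 0.62 and an adjusted p of 0.0603 to 0.0766. ANGPTL4, a lipase inhibitor, was above the floor on 1 array and had untested differences from day 0 of -0.31 and 0.72 in Sa/CD99 and 0.15 and 0.81 in SaOS-2 at days 7 and 14. Over the whole set, 1 member rose and none fell between days 7 and 14 in Sa/CD99, and 2 rose and 2 fell in SaOS-2, where centring on the array medians gave 3 and 0, adding SLC2A1, and quantile normalization 5 and 0, adding SLC2A1, ENO2 and PFKFB3. In Sa/CD99 this count of 1 was 3 without the day 7 array of wt22, 0 without that of wt36, 2 without the day 14 array of wt22 and 4 without that of wt36.

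In the main fit, 11 tested members were not called between any days, namely 4 enzymes and HIF1A, given above, and 6 HIF targets. BHLHE40, a circadian repressor, had log2 differences of 0.53 and 0.40 in Sa/CD99, and 0.50 and 0.16 in SaOS-2, and in Sa/CD99 passed the call at both times (0.72 and 0.59) without the day 0 array of wt36 and at day 7 with quantile normalization (0.59). The cytokine MIF had -0.39 and -0.18 in Sa/CD99, and -0.40 and -0.21 in SaOS-2. CA12, a carbonic anhydrase that sets the pH outside the cell, had 7.86 and 6.72 at day 0, 8.17 and 7.36 at day 7 and 8.54 and 7.95 at day 14 on the arrays labelled Sa/CD99, and 7.08 and 6.98 at day 0, 7.41 and 7.47 at day 7 and 7.67 and 7.73 at day 14 on the SaOS-2 arrays. In each clone and in SaOS-2 its signal was higher on the later days, with log2 differences of 0.47 and 0.95 in Sa/CD99, and 0.41 and 0.67 in SaOS-2 and a lowest adjusted p of 0.0651. With the clone or replicate number as a block, CA12 passed the call at day 14 (adjusted p = 0.00146 in Sa/CD99 and 0.00656 in SaOS-2). Without the block it passed at day 14 in Sa/CD99 with each array centred on its median (1.05, adjusted p = 0.0435) or quantile normalization (1.01, adjusted p = 0.0477), and in SaOS-2 in a fit of only the groups compared (0.67, adjusted p = 0.00028). It also passed in Sa/CD99 without the day 0 array of wt22 (1.05 at day 7 and 1.53 at day 14) or 1 day 7 array (0.95 at day 14), while its day 7 difference was -0.10 without the day 0 array of wt36. The other 3, VEGFA, NDRG1 and ADM, had a wide gap between the clones.

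The 2 clones of Sa/CD99 differed on some members by as much as the days did. The gap between wt22 and wt36 was over 1.5-fold on some day for 13 of 43 members, and reached 1.38 on the log2 scale, while that between the SaOS-2 arrays was at most 0.39. These are differences between single arrays, with no test. How many of all probe sets exceeded 1.5-fold was not counted. The SD of the clone gap over all tested probe sets was 0.392 to 0.417, so this count is not shown to be particular to the set. VEGFA, the main growth factor of blood vessels, had 10.58 and 10.96 at day 0, 10.75 and 10.18 at day 7 and 10.55 and 9.50 at day 14 on the arrays labelled Sa/CD99, and 10.64 and 10.75 at day 0, 10.49 and 10.48 at day 7 and 10.12 and 10.19 at day 14 on the SaOS-2 arrays. Against its own day 0, wt22 differed by 0.17 and -0.04 and wt36 by -0.77 and -1.46 at days 7 and 14. NDRG1, a stress-induced differentiation protein, had 11.05 and 11.20 at day 0, 11.11 and 10.28 at day 7 and 11.51 and 10.13 at day 14 on the arrays labelled Sa/CD99, and 10.89 and 10.78 at day 0, 10.18 and 10.25 at day 7 and 10.47 and 10.46 at day 14 on the SaOS-2 arrays. Against day 0, NDRG1 differed by 0.06 and 0.46 in wt22 and by -0.92 and -1.07 in wt36. At day 7 in SaOS-2 it differed by -0.62, which passed the call in a limma fit of only the groups compared (adjusted p = 0.000229). ADM, the vasodilator adrenomedullin, had 9.46 and 10.24 at day 0, 9.80 and 8.95 at day 7 and 9.38 and 9.06 at day 14 on the arrays labelled Sa/CD99, and 9.84 and 9.74 at day 0, 9.95 and 9.93 at day 7 and 10.09 and 9.95 at day 14 on the SaOS-2 arrays. Its differences were 0.34 and -0.08 in wt22 and -1.28 and -1.17 in wt36, so that for these 3 genes the mean of the line stands between clones with unlike values. With 1 array left out they passed the call in Sa/CD99, VEGFA at day 14 without the day 14 array of wt22 (-1.27), NDRG1 there too (-0.996) and ADM without the day 0 array of wt22 (-1.01 at day 14) or the day 7 array of wt22 (-0.90 at day 7). At day 14 against day 7, VEGFA was -0.97 without the day 14 array of wt22 and NDRG1 0.81 without that of wt36, each past the call. BNIP3L, a mitophagy receptor like BNIP3, had 10.46 and 9.64 at day 0, 9.71 and 8.59 at day 7 and 9.14 and 8.28 at day 14 on the arrays labelled Sa/CD99, and 9.80 and 9.87 at day 0, 9.12 and 9.17 at day 7 and 8.58 and 8.68 at day 14 on the SaOS-2 arrays. Here wt22 was higher than wt36 on each day, by 0.82, 1.12 and 0.86 at days 0, 7 and 14. BNIP3L fell at day 14 in Sa/CD99 (-1.34 ± 0.39, adjusted p = 0.0252) and SaOS-2 (-1.20 ± 0.39, adjusted p = 0.0422). The Sa/CD99 call was lost without the day 0 array of wt22 (-0.93) or the day 14 array of wt36 (-0.92), and that of SaOS-2 without any 1 array of its days 0, 7 or 14 (-1.25 to -1.16, adjusted p up to 0.161). Without the day 7 array of wt22 it fell at day 7 as well (-1.46). With the block, BNIP3L also fell at day 7 in Sa/CD99 (-0.90, adjusted p = 0.000513) and in SaOS-2 (-0.69, adjusted p = 0.00143). In SaOS-2 its day 7 change passed the call too in a limma fit of only the groups compared (adjusted p = 0.000108). BNIP3L and NDRG1 lie on chromosome 8, where the gap between the clones was wide over many genes. The median of wt22 minus wt36 over 93 tested genes of its short arm was 0.53, 0.52 and 0.71 at days 0, 7 and 14, and 0.39, 0.29 and 0.25 over 207 genes of its long arm, beside 0.012, -0.040 and -0.0080 over all 7426 genes. The part of this in the values of BNIP3L and NDRG1 was not tested. By contrast, both clones and both parental arrays had BNIP3 and PDK1 lower on the later days. BNIP3 had log2 differences of -2.56 and -2.68 in wt22 and -2.53 and -2.67 in wt36 at days 7 and 14.

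**Figure D3:**
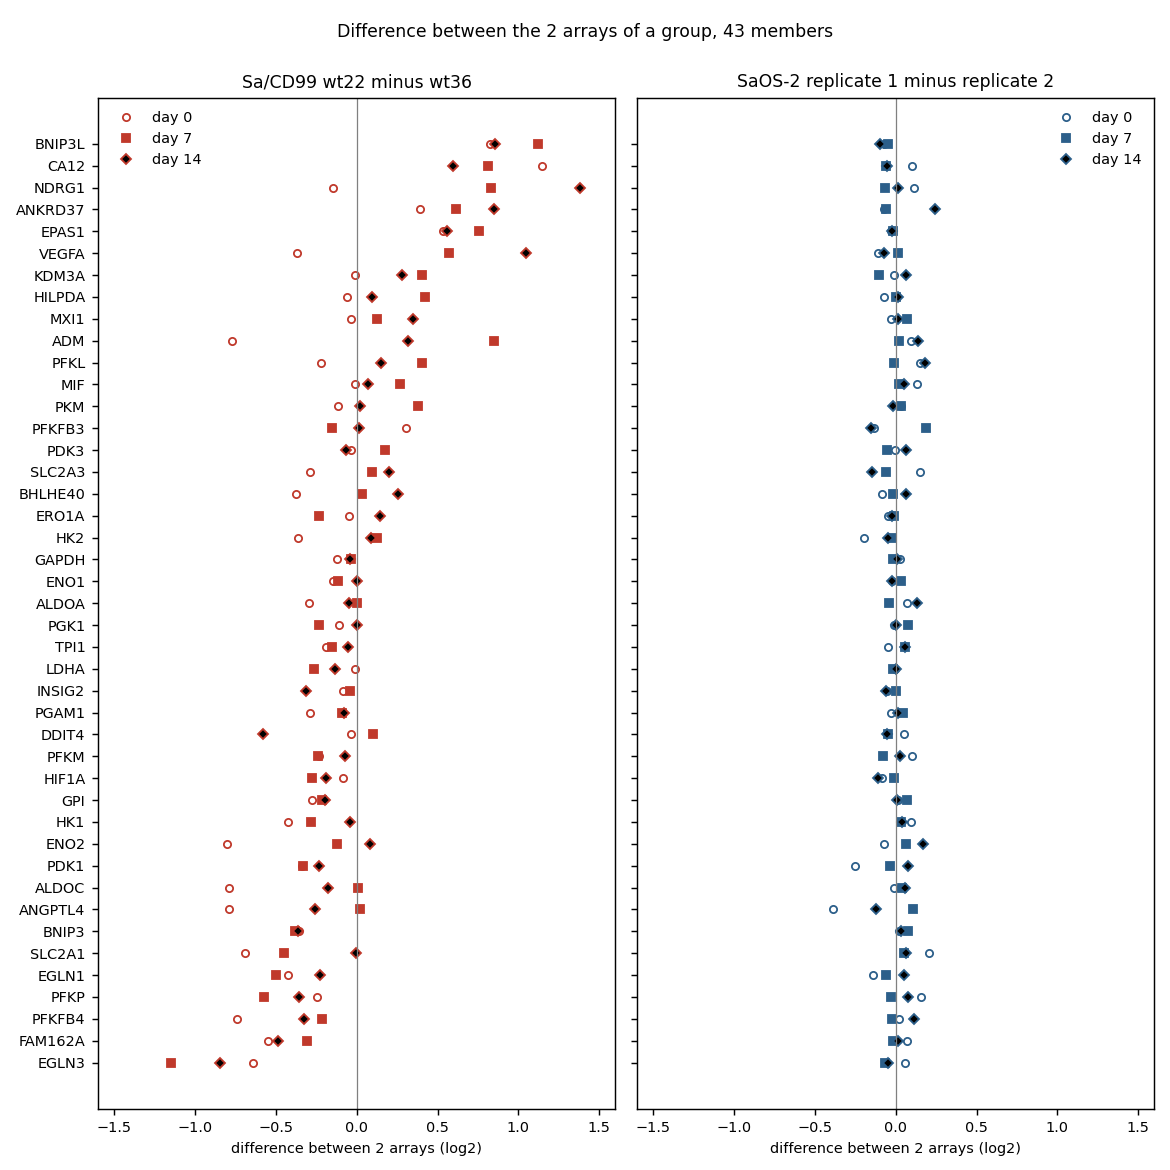
Log2 difference (x axis) between the 2 arrays of each group for the 43 members with a probe set (y axis), wt22 minus wt36 on the left and SaOS-2 replicate 1 minus replicate 2 on the right, with 1 point for each day. The clone differences reach 1.38 and the parental ones stay within 0.39.

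Between the arrays labelled Sa/CD99 and SaOS-2 at the same day, 1 of whose CD99 probe sets goes against the label, limma called 0 of 40 members at days 0, 7 and 14, where 1.47%, 1.81% and 1.46% of all probe sets were called. An unadjusted p under 0.05 was reached by 2, 6 and 2 members, beside 1677, 2847 and 2186 of all 12894 probe sets. The smallest adjusted p was 0.222 at day 0 (DDIT4, log2 -0.47, 95% interval -0.83 to -0.11), 0.0958 at day 7 (PDK3, -0.33, interval -0.53 to -0.12) and 0.211 at day 14 (ADM, -0.80, interval -1.46 to -0.14). The 95% interval lay inside 1.5-fold in either direction for 29, 27 and 25 of the 40 members, and over all members it ran down to -1.46 and up to 1.37, so that differences of that size lie within the intervals of some members. The count was 0 under each of the other settings run for these comparisons, which did not include the block.

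The difference between the lines in the change itself was tested as an interaction. Limma called 0 of 40 members for the change at day 7 and 0 at day 14, beside 0% and 0.0155% of all probe sets. Its unadjusted p was under 0.05 for 3 and 0 members, beside 544 and 467 of all 12894 probe sets. These 3 were PFKFB3, whose day 7 change was -0.98 in Sa/CD99 and -1.55 in SaOS-2 (difference 0.57, 95% interval 0.16 to 0.98), DDIT4 (0.41 and -0.21, difference 0.62, interval 0.11 to 1.13) and PFKM (0.27 and -0.11, difference 0.37, interval 0.0039 to 0.75), each with an adjusted p of 0.999. ADM had the widest difference at day 14, -0.86 with an interval of -1.79 to 0.076. The interval lay inside 1.5-fold for 15 members in the day 7 change and for 17 in that of day 14. A call in 1 line and not in the other, as for HK1, PFKL, DDIT4 or SLC2A1, is therefore not shown to be a difference between the lines.

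**Figure D4:**
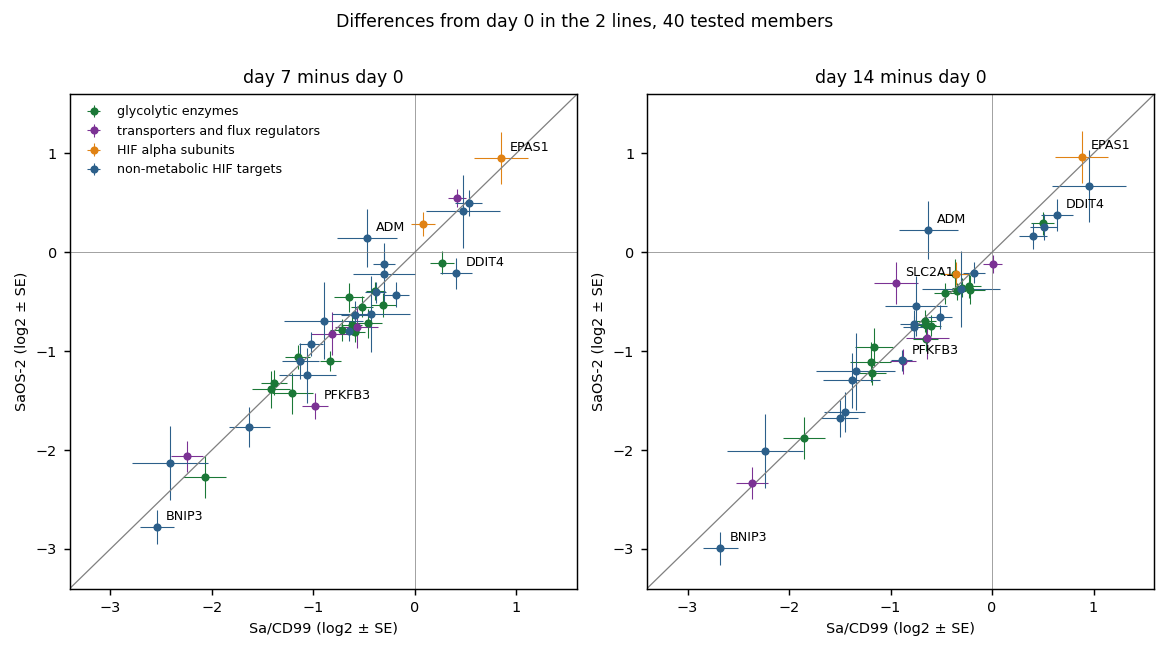
Log2 difference from day 0 in Sa/CD99 (x axis) and in SaOS-2 (y axis) for the 40 tested members at day 7 (left) and day 14 (right), with bars of 1 SE, colours for roles and a line of equal change. Points lie along the line, with BNIP3 at the lower end (-2.54 and -2.78 at day 7). EPAS1 is at the upper end at day 7, and at day 14 CA12 lies farther right. ADM lies off the line at day 14 (-0.63 and 0.23).

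Other genes of these pathways were examined as 2 further lists, chosen, like the members, with earlier results of these data known. Of 38 other genes of glucose metabolism 13 were tested, and at days 7 and 14 against day 0 3 and 2 rose and 1 and 3 fell in Sa/CD99, and 3 and 2 rose and 1 and 2 fell in SaOS-2. The shares of all probe sets called in these comparisons were 10.4% and 6.39% higher and 7.78% and 13% lower in Sa/CD99, and 12.8% and 6.03% higher and 8.63% and 8.86% lower in SaOS-2, at days 7 and 14. The median difference was -0.22 and -0.098 in Sa/CD99 and -0.23 and -0.052 in SaOS-2. PDP1, the phosphatase that undoes the action of PDK1 on pyruvate dehydrogenase, rose in all 4 comparisons (log2 1.31 and 0.92 in Sa/CD99, 1.59 and 0.80 in SaOS-2, adjusted p at most 0.00778). The sugar carrier SLC2A10 rose in all 4 as well (0.69 and 0.67, and 0.67 and 0.65). SLC16A7, a carrier of lactate and pyruvate, rose at day 7 (0.78 in Sa/CD99 and 1.01 in SaOS-2). GPD2, the mitochondrial glycerol phosphate dehydrogenase, fell at day 14 (-1.01 in each line), and PGM2, which handles sugar phosphates, fell at day 14 in Sa/CD99 (-0.77) and SaOS-2 (-0.75). With 1 array left out, calls were lost at day 14 in SaOS-2 for PDP1 (0.71 without replicate 1 of day 0 and 0.76 without replicate 2 of day 14), SLC2A10 (0.58 without replicate 2 of day 0) and PGM2 (-0.65 without replicate 2 of day 0 and -0.68 without replicate 1 of day 14), and in Sa/CD99 for PGM2 (-0.57 without the day 14 array of wt22). With the mean of all its probe sets SLC16A7 was under 1.5-fold at day 7 (0.34 in Sa/CD99 and 0.58 in SaOS-2).

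Of 48 other HIF pathway genes 28 were tested. In Sa/CD99 9 fell and 0 rose at day 7, and 11 fell and 1 rose at day 14, and in SaOS-2 14 fell and 1 rose at day 7, and 11 fell and 2 rose at day 14. Of all probe sets, 7.78% and 13% were lower and 10.4% and 6.39% higher in Sa/CD99 at days 7 and 14, and 8.63% and 8.86% lower and 12.8% and 6.03% higher in SaOS-2. The median difference was -0.45 and -0.54 in Sa/CD99 and -0.63 and -0.51 in SaOS-2. P4HA1, the catalytic subunit of collagen prolyl hydroxylase, fell at days 7 and 14 (log2 -1.98 and -2.11 in Sa/CD99, and -1.83 and -2.24 in SaOS-2). EDN1, the vasoconstrictor endothelin, fell as well, 4.01-fold in Sa/CD99 and 3.13-fold in SaOS-2 at day 14. VLDLR, a lipoprotein receptor, fell too (-1.56 and -1.74 in Sa/CD99, and -1.93 and -1.86 in SaOS-2). The 4 called higher in some comparison were ZNF395 in Sa/CD99 at day 14 (0.62), TFRC, the transferrin receptor, in SaOS-2 at day 7 (0.61), and MAFF (1.61) and KDM4B (0.68) in SaOS-2 at day 14. Each of these 4 lost its call with some array left out, ZNF395 most of all, at 0.43 without the day 0 array of wt36 and 0.35 without the day 14 array of wt22. TFRC was 0.51 without replicate 1 of day 0 and 0.53 without replicate 2 of day 7, KDM4B 0.63 without replicate 2 of day 14, and MAFF 1.55 to 1.67 at an adjusted p of up to 0.132 without any 1 SaOS-2 array. At day 14 EDN1 lost its call in Sa/CD99 without the day 0 array of wt22 (-1.78) and in SaOS-2 without any 1 array of days 0 and 14 (-1.69 to -1.61, adjusted p up to 0.111), while P4HA1 and VLDLR kept theirs throughout these fits.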

How the data were processed

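RNA from 12 samples of SaOS-2 and Sa/CD99 was hybridised to Affymetrix HG-U133 Plus 2.0 arrays, 1 per sample. The deposited table holds log2 expression values that the authors made by robust multi-array averaging (RMA), which corrects background, equalises the arrays and summarises probes. It was used with no further scaling, so a shift common to all RNA would not be seen. In their processing notes the submitters list affy and RMA without versions, the study's methods name Bioconductor, and no genome build was found in them. No column of per-sample values was left unused.

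Of 54675 probe sets, 62 controls were left out. A probe set was kept if its signal exceeded 100 on at least 4 of the 12 arrays (18677 probe sets) and if its interquartile range exceeded the median interquartile range of all probe sets other than controls (12894 passed both). Names came from the array annotation, updated by gene ID to RefSeq on GRCh38.p14, where 41091 probe sets had 1 gene, 1801 several and 11721 none. One limma model (3.58.1, R 4.3.3) with a mean per line and day gave all 11 comparisons, with 95% intervals not adjusted for their number, and the code was tested on simulated data. Groups hold 2 arrays each, which limits the precision.

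Samples were grouped by the labelled line and day. All 45 members are described by role, with values on each array for those called between days or with the largest changes, and of the further lists up to 4 called genes per comparison by size. Members and lists were chosen with earlier results of these data known. Clone numbers pair samples, since wt22 and wt36 name transfected lines followed through all 3 days. Their deviations from the group means correlated between days (r = 0.582, 0.323 and 0.629 over tested probe sets), and those of same-numbered SaOS-2 arrays had r = -0.0433, 0.245 and -0.046. Alternatives were other filters, probe set rules, scalings and limma settings, the number as a block, and each array left out in turn. Values of single clones, of further probe sets of a gene and of GAPDH control probe sets were added after seeing the data.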

Additional observations from a re-analysis of the deposited data

How the results depend on the processing

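No call reversed its direction under another setting. The shares of all probe sets called under the other settings were not computed. Of the 95 calls on single members between days, 84 to 95 were kept under the settings run on all arrays, except that 62 were kept in a fit of only the groups compared and 64 of 75 with the mean of all probe sets of a gene. Of 66 calls against day 0 in the further lists, whose alternatives were chosen after seeing the data, 55 to 66 were kept with 1 setting changed or 1 array left out (55 of 63 with the mean of all probe sets), except 49 in a fit of only the groups compared. The fit of only the groups compared called 10 and 3 members in Sa/CD99 at days 7 and 14, and 0 between days 7 and 14. It estimates the spread from the compared arrays alone, so that in SaOS-2 the gap between the clones has no part in it. With the mean of all probe sets of a gene, 33 members were tested in place of 40. Of these, 14 and 15 were called in Sa/CD99 at days 7 and 14 and 15 in SaOS-2 at day 7. How much of the lower counts came from members that left the test was not worked out. The single call between days 7 and 14 in Sa/CD99 became 2 with no filter and 3 with arrays centred on their median. Leaving out 1 array at a time gave 17 to 25 and 21 to 24 calls in Sa/CD99 at days 7 and 14 against day 0 and 0 to 4 between days 7 and 14, and 18 to 23, 16 to 22 and 3 to 4 in SaOS-2. Comparisons between lines, and of the change between lines, kept 0 calls in all settings run for them, where the replicate block, lying within each line, was run for the change alone. With the replicate block, 23 and 24 members were called in Sa/CD99 at days 7 and 14 and 24 and 23 in SaOS-2, through BNIP3L at day 7 and CA12 at day 14, and no other call changed. With 2 arrays a group, members near the 6.64 floor on the later days (ENO2, EGLN3 and ANKRD37) have later signals too low to order.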

Other observations

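The array carries control probe sets for the 3', middle and 5' parts of GAPDH, which no test used. Their mean difference from day 0 was -0.22, -0.20 and -0.18 at day 7 in Sa/CD99 and -0.27, -0.20 and -0.21 at day 7 in SaOS-2, and at day 14 it was -0.23, -0.22 and -0.20 in Sa/CD99 and -0.22, -0.20 and -0.23 in SaOS-2. Some members called against day 0 had further probe sets naming them alone. Those that passed the signal filter differed from day 0 with the same sign as the one used for 15 of 16 probe sets (11 genes) at day 7 and 14 of 15 (10 genes) at day 14 in Sa/CD99, and for 14 of 15 (10 genes) at each time in SaOS-2. The other was an HK2 probe set each time. Of those that failed the signal filter, 6 of 16 at day 7 and 4 of 16 at day 14 in Sa/CD99, and 4 of 17 and 2 of 15 in SaOS-2, had the opposite sign, with HK2 among them each time, PKM at day 7 in both lines and PDK1 at day 7 in Sa/CD99.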
